A study of Homo sapiens with 8 samples.

Results

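Exons that control cells almost always skip were followed in U2OS cells, a human osteosarcoma line, after knockdown of CHERP. The exons were chosen by their level in the control libraries: an exon of 51 to 300 nt in the whole-cell skipped-exon table of rMATS, with flanking introns that were neither both 500 nt or shorter nor both 10000 nt or longer, was kept once, in the event with the most reads. It was a member when its event had a mean of 20 or more reads per library and when its inclusion level, averaged over both control libraries, was below 0.10. The inclusion level estimates the share of an event's transcripts that carry the exon. It is the reads of the form with the exon per effective length, over the reads of both forms per length. Reads wholly inside the exon count for the form with the exon, as do those on its junctions. Such inside reads cannot be told from reads of unspliced RNA. Of 63977 events in the table, 38160 exons met the limits on length and introns, 31571 of them also had enough reads and a level, and 3363 of those (10.7%) in 2356 genes were rarely included. The other exons were 3526 of intermediate inclusion (0.10 to below 0.90) and 24682 of high inclusion (0.90 or more).

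The study held 8 libraries in 4 groups of 2. U2OS cells received 20 nM siRNA against EGFP, a gene these cells do not have, as the control, or siRNA CHERP #2, and were harvested after 48 h. RNA was taken from whole cells or from the cytoplasm, the supernatant of a detergent lysis, so that each fraction had 2 EGFP and 2 CHERP libraries. All cells were of this one line and the knockdown rested on one siRNA. The study's methods call the 2 libraries of a group biological replicates, and the labels do not tie them to separate cultures. The p-values reach no further than the variation among such libraries. For single splicing events that variation came from the trend over all events of like depth, not from the event's own libraries. The tables give the libraries of a group without their number, and they are called the first and the second library here.

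CHERP is a protein of the spliceosome that associates with the U2 snRNP, the particle that recognises the branch point and the 3′ splice site. An exon that is nearly always skipped may be a protein-coding cassette that the cell type does not use, or a poison exon, whose inclusion brings a premature stop codon and sends the transcript to nonsense-mediated decay (NMD). Many genes of splicing factors limit their own level through such exons. NMD acts on transcripts that are being translated, so the level of a poison exon in RNA counts what was made and not yet degraded.

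The sequences below are a selection of 11 exons that lie between coding exons and had one of the largest whole-cell differences or a call in the cytoplasm. They are shown to let the exons with a stop be compared with those that keep the frame, and other exons of both kinds are given by their values only. They were read from the genome build of the tables (hg19, GRCh37), 5′ to 3′ on the strand of the gene. The first set shows exons with a stop codon in the frame of the upstream coding exon. Each line starts with the last 20 intronic bases and ends at that stop codon, which is in capitals.
SLC25A36, chr3:140685756-140685810, plus strand, exon of 103 nt: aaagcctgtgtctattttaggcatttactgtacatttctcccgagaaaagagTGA
SS18, chr18:23662462-23662512, minus strand, exon of 166 nt: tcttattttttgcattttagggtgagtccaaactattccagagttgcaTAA
PQLC3, chr2:11312857-11312911, plus strand, exon of 74 nt: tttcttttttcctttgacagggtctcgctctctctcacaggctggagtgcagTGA
NAGPA, chr16:5078312-5078386, minus strand, exon of 69 nt: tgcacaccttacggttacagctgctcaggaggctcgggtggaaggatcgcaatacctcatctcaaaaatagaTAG
RPS6KB1, chr17:58008141-58008233, plus strand, exon of 253 nt: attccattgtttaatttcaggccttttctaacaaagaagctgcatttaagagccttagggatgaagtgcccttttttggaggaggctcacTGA
GMPR2, longer form, chr14:24703293-24703318, plus strand, exon of 135 nt: taatcttcctcttctttaagtccTAG

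The next set shows exons without a stop codon whose length is a multiple of 3, so that the frame goes on behind them. The exon is in capitals, between 20 intronic bases before it and 6 after it.
GMPR2, shorter form, chr14:24703299-24703453, plus strand, exon of 129 nt: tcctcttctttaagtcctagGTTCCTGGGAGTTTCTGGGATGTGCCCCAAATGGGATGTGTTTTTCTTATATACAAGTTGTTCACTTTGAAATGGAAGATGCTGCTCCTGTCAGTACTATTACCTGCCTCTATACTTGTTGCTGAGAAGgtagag
ODF2L, chr1:86822121-86822305, minus strand, exon of 159 nt: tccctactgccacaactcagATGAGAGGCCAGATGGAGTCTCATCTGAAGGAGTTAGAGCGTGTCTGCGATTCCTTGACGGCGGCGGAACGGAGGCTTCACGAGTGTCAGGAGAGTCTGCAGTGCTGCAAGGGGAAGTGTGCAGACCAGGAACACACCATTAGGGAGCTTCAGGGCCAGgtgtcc
FAM104A, chr17:71208811-71208899, minus strand, exon of 63 nt: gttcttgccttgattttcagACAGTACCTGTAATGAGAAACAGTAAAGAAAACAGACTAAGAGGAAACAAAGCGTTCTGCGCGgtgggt
RBM41, chrX:106356621-106356718, minus strand, exon of 72 nt: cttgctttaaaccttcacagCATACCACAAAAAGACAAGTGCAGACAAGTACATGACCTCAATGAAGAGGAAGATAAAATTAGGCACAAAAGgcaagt
IMPDH2, chr3:49063422-49063519, minus strand, exon of 72 nt: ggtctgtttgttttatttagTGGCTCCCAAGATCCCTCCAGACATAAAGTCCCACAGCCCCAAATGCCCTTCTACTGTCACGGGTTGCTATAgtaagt

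Both GMPR2 exons end at the same base and differ at their start. The longer form begins 6 bases earlier, and the stop codon is made of the last 3 of these 6 bases, so the shorter form lacks it. All 11 exons shown follow an AG, and 10 of them are followed by GT. The exception is the RBM41 exon, which is followed by GC.

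In the libraries, the reads on skipped-exon events numbered 19287081 to 23480646 for whole cells and 3826409 to 4685633 for the cytoplasm. The effective length of the skipped form was 144 in the whole-cell table and 73 in the cytoplasm table, so the fractions were counted with different read lengths and levels were tested only within a table. Reads on the events of CHERP itself were 103 and 77 with EGFP siRNA against 3 and 10 with CHERP siRNA in whole cells, and 31 and 21 against 3 and 4 in the cytoplasm. Of the genes that mark bone and mesenchymal cells, VIM had 57402 to 80880 reads in the whole-cell libraries and RUNX2 had 16 and 18 with EGFP siRNA against 0 and 3 with CHERP siRNA. COL1A1, COL1A2 and SPARC had no event listed. Of the markers of other cells, CDH1 had 1 read in each whole-cell EGFP library and 22 and 15 in the CHERP libraries, and EPCAM, PTPRC, ALB and GFAP had no event listed. The part of these genes in the results was not tested.

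The rarely included exons differed from the other exons in what they did to the reading frame. For 2704 of the 3363, an annotated protein-coding transcript joined both neighbouring exons in coding sequence, so that the frame entering the exon was known. Of these 2704, 1862 (68.9%) held an in-frame stop codon, 385 (14.2%) had none but shifted the frame, and 457 (16.9%) kept it. The same shares with a stop were 33.1% of 1657 exons of intermediate inclusion and 10.8% of 2761 of high inclusion. The latter are the few highly included exons that some annotated transcript skips. Among exons whose length is a multiple of 3, a stop was found in 55.7% of 1032 rarely included, 17.7% of 1000 intermediate and 47 of 1883 highly included exons. These shares are a description over exons, with no test.

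**Figure D1:**
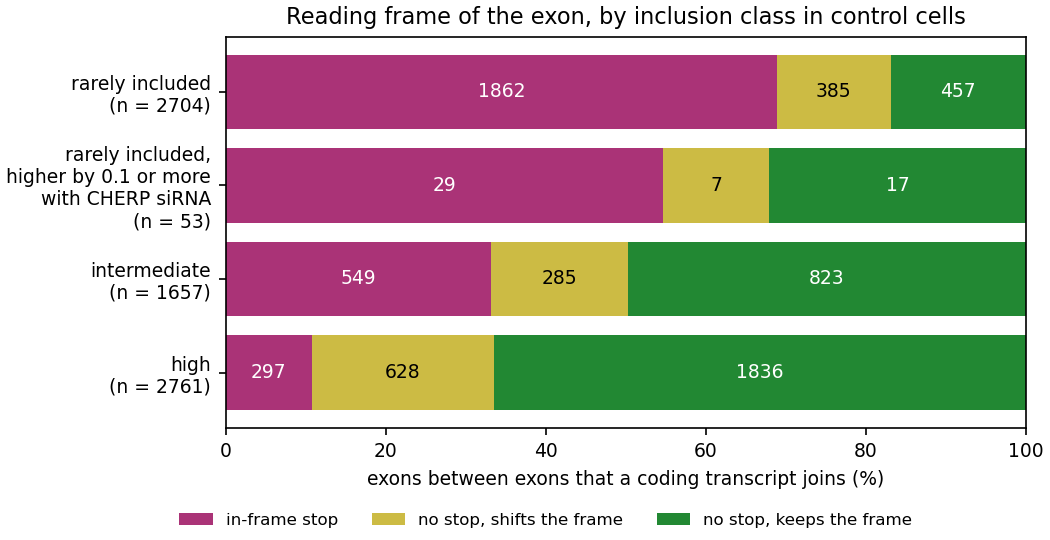
Share of exons (horizontal axis, %) with an in-frame stop, with a frame shift but no stop, or with neither, among exons whose neighbours an annotated coding transcript joins, with the number of exons printed in each bar. Rows are the rarely included exons, those of them higher by 0.1 or more in whole cells with CHERP siRNA, and the exons of intermediate and high inclusion. The part with a stop takes 68.9% of the rarely included exons and 10.8% of the highly included ones.

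The stop came early. Its first base lay at a median of 33 bases into the exon, with quartiles at 15 and 60, and 36 stops began in the upstream exon. TGA made up 961 of the 1862 stops, TAA 452 and TAG 449. In the GENCODE 44 annotation, 1072 of the 1862 exons (57.6%) appeared only in transcripts labelled as NMD targets, 398 (21.4%) only in noncoding transcripts and 186 (9.99%) as coding exons of some protein-coding transcript. Seen the other way, 1251 exons found only in NMD transcripts lay between joined coding exons, and 1072 of them held a stop, 171 shifted the frame and 8 did neither.

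Over all 3363, 1266 exons (37.6%) were annotated only in NMD transcripts, against 10.0% of the intermediate and 1.77% of the highly included exons. Another 776 (23.1%) were coding, 649 (19.3%) lay in the 5′ untranslated region of a coding transcript, 621 (18.5%) occurred only in noncoding transcripts and 50 (1.49%) matched no annotated exon exactly. The share of coding exons was 64.0% in the intermediate and 94.7% in the high class. A length divisible by 3 was found in 37.1% of the rarely included, 46.0% of the intermediate and 40.3% of the highly included exons.

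Their splice sites differed from those of the other exons mainly at the 5′ splice site. Each site got a score that adds, position by position, the log2 ratio of how often its base occurs there among 48505 distinct exons of the table to an even base composition. The 5′ splice site scored a median of 7.08 in the rarely included, 7.71 in the intermediate and 8.15 in the highly included exons. The 3′ splice site scored 8.96, 8.98 and 9.59. An AG before and a GT after the exon were present in 94.5%, 98.1% and 99.1% of the classes. A GC in place of the GT followed 164 of the 3363 rarely included exons (4.88%), against 1.76% of the intermediate and 0.754% of the highly included ones. The rarely included exons were also the richest in G and C, with medians of 48.9%, 47.4% and 44.8%, and their upstream introns had a median of 1813 nt against 2422 and 2354. Exon length was similar, with medians of 112, 117 and 117 nt.

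Most genes contributed 1 exon (1672 of 2356), 468 contributed 2 and 216 contributed 3 or more. CMC2 and LRRC49 had the most, 7 each. The 3363 exons made up 3169 separate stretches, since 377 overlapped another member, and overlapping exons can share reads. Only 7 overlapped an exon of high inclusion. The depth behind a level was modest, with a median of 110.5 reads per library on the event, and the inclusion reads per EGFP library had quartiles of 1.00 and 6.50.

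In whole cells, knockdown of CHERP left the exons as a group rarely included. The median level was 0.0147 with EGFP siRNA (lower quartile 0.00363, upper quartile 0.0396) and 0.0126 with CHERP siRNA (0.00340 and 0.0337), and the median difference per exon was -0.000463. Single libraries had medians of 0.0128 and 0.0117 with EGFP siRNA against 0.0110 and 0.0113 with CHERP siRNA. With CHERP siRNA 183 exons reached 0.10 or more, 34 reached 0.20 and 8 reached 0.30. The EGFP libraries of this comparison chose the exons, so these values carry no test.

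**Figure D2:**
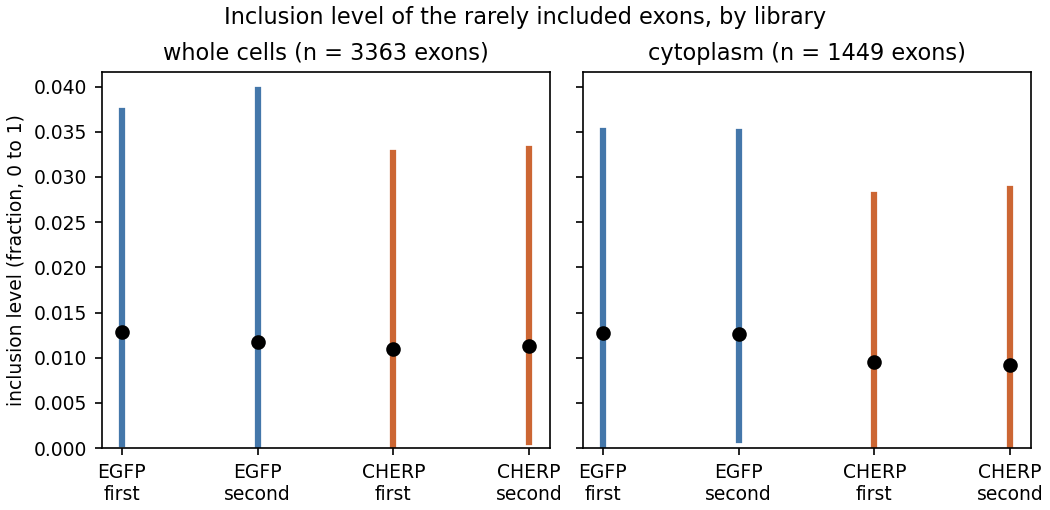
Inclusion level of the rarely included exons (vertical axis, fraction) in each library, with the median as a point and the range from the lower to the upper quartile as a line. The left panel shows the 3363 exons in whole cells, and the right panel the 1449 of them with a mean of 20 or more reads per library in the cytoplasm, where both CHERP medians (0.00955 and 0.00920) lie below both EGFP medians (0.0127 and 0.0126).

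Because the control values chose the exons, membership was also set by one control library alone and the difference taken from the other one. With the first EGFP library choosing, 3357 exons were members and the median difference was 1.34e-05. With the second choosing, 3339 were members and the median difference was 0. The median with CHERP siRNA was then 0.0126 and 0.0128. The level of 231 and 213 of these exons was 0.10 or more in the control library that had not chosen them, which shows how far a level can move between libraries of one group. A level at least 0.1 above that library was found with CHERP siRNA for 70 and 72 exons, and one at least 0.1 below it for 94 and 57.

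Both CHERP libraries lay above both EGFP libraries for 610 exons (18.1%, against 12.2% of all 31571 exons), and below both for 714 (21.2%, against 14.8%). The fit over all 63977 events, in which 0.456% were past the threshold with a higher and 0.436% with a lower level, put 34 members past it with a higher and 29 with a lower level. The control values that chose the members enter this fit, so the counts are a description and nothing is read from them. They were 31 and 35 without the first EGFP library, 19 and 12 without the second, 16 and 11 without the first CHERP library, 12 and 5 without the second, 46 and 52 with the spread fitted against the rarer form, and 0 and 0 with limma on the log2 odds. The table lists no event without an inclusion read, so each of the 427 exons with no inclusion read in either EGFP library had at least 1 with CHERP siRNA. Their level with CHERP siRNA had a median of 0.00815. In the 975 exons with a control level above 0 and under 0.01 the median went from 0.00439 to 0.00319, in the 1332 from 0.01 to under 0.05 from 0.0233 to 0.0171, and in the 629 from 0.05 to under 0.10 from 0.0701 to 0.0474. These steps were cut by the same control values that the CHERP values are set against, so an order of the differences along them is built in and is not a result. The share of exons between joined coding exons that held a stop was 71.5%, 71.4%, 68.4% and 63.5% in these 4 steps of rising control level. The 5′ splice site score showed no such order, with medians of 7.27, 6.94, 7.12 and 7.12.

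A small set of exons had a large difference. In 69 exons of 68 genes the level was higher by 0.1 or more with both CHERP libraries above both EGFP libraries. These are 2.05% of the members. Of all 31571 exons, 671 (2.13%) had such a difference. However, 24682 of the 31571 had a control level of 0.90 or more, which leaves room for a rise of at most 0.1. The share of all exons is thus lowered by exons that could hardly qualify. Whether members rose as often as other exons is not read from it. The level of the 69 had a median of 0.0562 with EGFP siRNA and 0.195 with CHERP siRNA, at a median of 49.5 reads per library (range 20.0 to 818). Of the 69, 5 had no inclusion read in either EGFP library. They are listed only through their CHERP reads, so their direction was fixed. Between joined coding exons, 29 of 53 (54.7%) held a stop, 7 shifted the frame and 17 kept it. Of all members, such a difference was found in 29 of the 1862 exons with a stop (1.56%), 7 of 385 that shift the frame (1.82%) and 17 of 457 that keep it (3.72%). The 69 exons were 97.0 nt long at the median, against 113 nt for the others, and 53.6% had a length divisible by 3, against 36.7%.

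The 12 largest differences are given by library. The exon of SLC25A36, a mitochondrial carrier of pyrimidine nucleotides, was at 0.123 and 0.0429 with EGFP siRNA and at 0.415 and 0.605 with CHERP siRNA, from 28 to 58 reads per library. Its stop codon begins at base 33 of the exon, which is annotated only in an NMD transcript. ODF2L, a relative of the centrosomal protein ODF2, had a coding exon at 0.115 and 0.0541 against 0.519 and 0.395, from 84 to 121 reads. In both genes each CHERP library lay well above the EGFP libraries.
The exon of C5orf28 (now TMEM267), in the 5′ untranslated region, was at 0.0586 and 0 against 0.321 and 0.399, where the EGFP values rest on 9 reads each. ZNF529, a zinc finger gene, had an exon at 0.0592 and 0.0573 against 0.394 and 0.370. PQLC3 (now SLC66A3), a membrane protein with PQ-loop repeats, had a stop-containing exon at 0.0902 and 0 against 0.216 and 0.490. C5orf28 reached the mean of 20 reads only through its CHERP libraries (37 and 42 reads), and its control level rests on the fewest reads of the 12. The other pair of exons had 40 or fewer reads in any library.
RP11-152P17.2 is the noncoding antisense transcript now named ZFPM2-AS1, whose reads can be told from those on the other strand only if the counting used the strand. Its exon was at 0.0767 and 0.103 against 0.399 and 0.304. TERF1 codes for a telomere-binding protein of the shelterin complex. Its coding exon of 60 nt was at 0.0515 and 0.0703 against 0.292 and 0.305, and this was the most deeply read of the 12, with 187 to 341 reads per library. SS18, a subunit of the BAF chromatin remodelling complex, had a stop-containing exon at 0.0277 and 0.112 against 0.204 and 0.407.
SEPT7P2 is a pseudogene of SEPT7, and its value is uncertain because reads can be shared with the parent gene. Its mean was 0.0892 (SD 0.0154, n = 2) with EGFP siRNA, and it was at 0.250 and 0.397 with CHERP siRNA. RBM41, an RNA-binding protein, had a coding exon at 0.0727 and 0.0870 against 0.222 and 0.372. The exon of NAGPA, which uncovers the mannose 6-phosphate tag of lysosomal enzymes, was at 0 and 0.0737 against 0.276 and 0.231. That of FAM104A was at 0.0939 and 0.0849 against 0.364 and 0.226. The CHERP libraries differed from each other by more than 0.1 in 7 of the 12 exons.

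**Figure D3:**
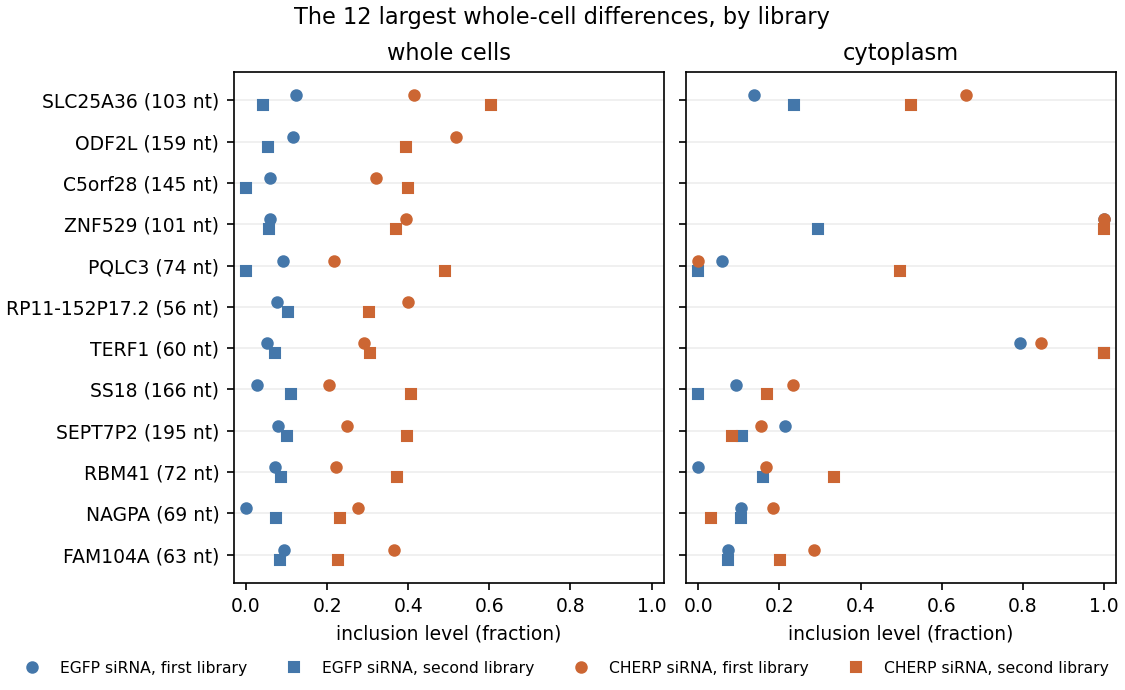
Inclusion level (horizontal axis, fraction) in each library of the 12 exons with the largest whole-cell difference, in whole cells on the left and in the cytoplasm on the right. Blue points are EGFP and orange points CHERP libraries, circles the first and squares the second library. In the cytoplasm no level is shown for ODF2L, C5orf28 and RP11-152P17.2, which had no event there.

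The 3 largest differences in the other direction without overlap were in INTS3, GON4L and HSPBAP1. INTS3, a subunit of the Integrator complex, was at 0.0118 and 0.185 with EGFP siRNA and at 0 in both CHERP libraries. GON4L was at 0.0331 and 0.167 against 0.0104 and 0, and HSPBAP1 at 0.0239 and 0.164 against 0 and 0. In each, the second EGFP library alone held the high level, at 17 to 56 reads. A level can drop by less than 0.10 at most here, so the size of a lower level is bounded by the rule. The rule itself cut between exons of near-identical level: just inside were GON4L, ZNF384 (0.106 and 0.0944 with EGFP siRNA) and CPSF7 (0.107 and 0.0926), and just outside were BCS1L (0.105 and 0.0963), MFF (0.0487 and 0.153) and CLOCK (0.0640 and 0.138).

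The cytoplasmic libraries had no part in the choice of the exons and gave the test. The event of 2467 members was listed in the cytoplasm table, all of them were tested, 2393 had a level in every library and 1449 of those had a mean of 20 or more reads per library. In these 1449, the median level was 0.0133 with EGFP siRNA and 0.0102 with CHERP siRNA, with a median difference of -0.00162. A control level below 0.10 was again found in 1359 of them (93.8%). Both CHERP libraries lay above both EGFP libraries in 192 exons (13.3%, against 11.8% of the 9725 exons of all classes), and below both in 365 (25.2%, against 16.6%). The median difference was -0.0140 for the 1420 exons of intermediate inclusion and -0.00047 for the 6856 of high inclusion. Of the 1420, 264 lay above and 437 below without overlap, and of the 6856, 692 lay above and 816 below. More exons lay below than above in every class, so this is not particular to the rarely included exons.

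The quasi-binomial test with Benjamini-Hochberg adjustment over all 31924 events of the table called 11 of the 2467 members. Of these, 7 rose (0.284%, against 0.147% of all events) and 4 fell (0.162%, against 0.110%). At an unadjusted p under 0.05 there were 135 of the 2467, where a share of about 0.05 is expected with no difference at all. The test took the spread of an event from the trend over all events of like depth, not from its own libraries. Among the 2748 intermediate exons tested, 5 rose and 16 fell, and among the 8114 of high inclusion, 2 rose and 10 fell.

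GMPR2, a reductase that turns GMP into IMP, gave 2 of the 7 calls, which share their reads because both forms of the exon overlap. The longer form, with the stop, was at 0 and 0.0600 with EGFP siRNA against 0.260 and 0.374 with CHERP siRNA in the cytoplasm, a rise of 0.287 (adjusted p = 0.00471). The shorter form, without it, was at 0 and 0.0318 against 0.249 and 0.265, a rise of 0.241 (adjusted p = 0.0150). Both were also higher in whole cells, by 0.138 and 0.0764. These levels rested on 20 to 37 reads per cytoplasmic library.

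FOXM1, a transcription factor that drives genes of the G2 and M phases, carries a coding exon of 114 nt that keeps the frame. In the cytoplasm it was at 0.0235 and 0.0238 with EGFP siRNA and at 0.156 and 0.159 with CHERP siRNA (adjusted p = 0.0180), and in whole cells at 0.0168 and 0.0408 against 0.161 and 0.215. The libraries of a group were close and the groups far apart in both fractions. The coding exon of FAM104A was at 0.0723 and 0.0724 against 0.286 and 0.202 in the cytoplasm (adjusted p = 0.0447). FAM49B (now CYRIB), a RAC1-binding regulator of the actin cytoskeleton, had an exon of 83 nt at 0.0187 and 0.0564 against 0.106 and 0.159 (adjusted p = 0.00644).

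HNRNPD and HNRNPDL are related hnRNP proteins whose genes lie on chromosome 4, on the minus strand, and their exons were alike in several ways. The exons were 107 and 105 nt long, were flanked by introns of 302 and 740 nt in HNRNPD and 369 and 679 nt in HNRNPDL, and were annotated only in NMD transcripts. The HNRNPDL exon (chr4:83346716-83346820) was at 0.0634 and 0.0568 with EGFP siRNA against 0.143 and 0.117 in the cytoplasm, from 209 to 414 reads (adjusted p = 0.0149), and at 0.0740 and 0.0773 against 0.191 and 0.183 in whole cells. The HNRNPD exon (chr4:83276048-83276154) was at 0.0136 and 0.00706 against 0.0553 and 0.0425 in the cytoplasm (adjusted p = 0.0473), and at 0.00350 and 0.00458 against 0.0287 and 0.0294 in whole cells. Both exons rose, and the HNRNPD exon was the lower one in every library.

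The 4 exons that fell were in IMPDH2, TMEM43, ALDOA and RPS6KB1. IMPDH2, the rate-limiting enzyme of guanine nucleotide synthesis, had a frame-keeping coding exon at 0.0545 and 0.0468 with EGFP siRNA against 0.0143 and 0.0138 with CHERP siRNA in the cytoplasm, from 444 to 597 reads (adjusted p = 0.00056). TMEM43, a protein of the inner nuclear membrane, had a stop-containing exon at 0.0650 and 0.0471 against 0 and 0.00235 (adjusted p = 0.00397). ALDOA, the glycolytic aldolase, had an exon of 154 nt at 0.0171 and 0.00972 against 0.00376 and 0.00280 (adjusted p = 0.00412). That of RPS6KB1, the ribosomal protein S6 kinase, was at 0.118 and 0.118 against 0 and 0.00888 (adjusted p = 0.0450). All 4 were also lower in whole cells, with no overlap of the libraries. The whole-cell difference was -0.0332 in IMPDH2, -0.0813 in TMEM43, -0.0168 in ALDOA and -0.0285 in RPS6KB1.

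**Figure D4:**
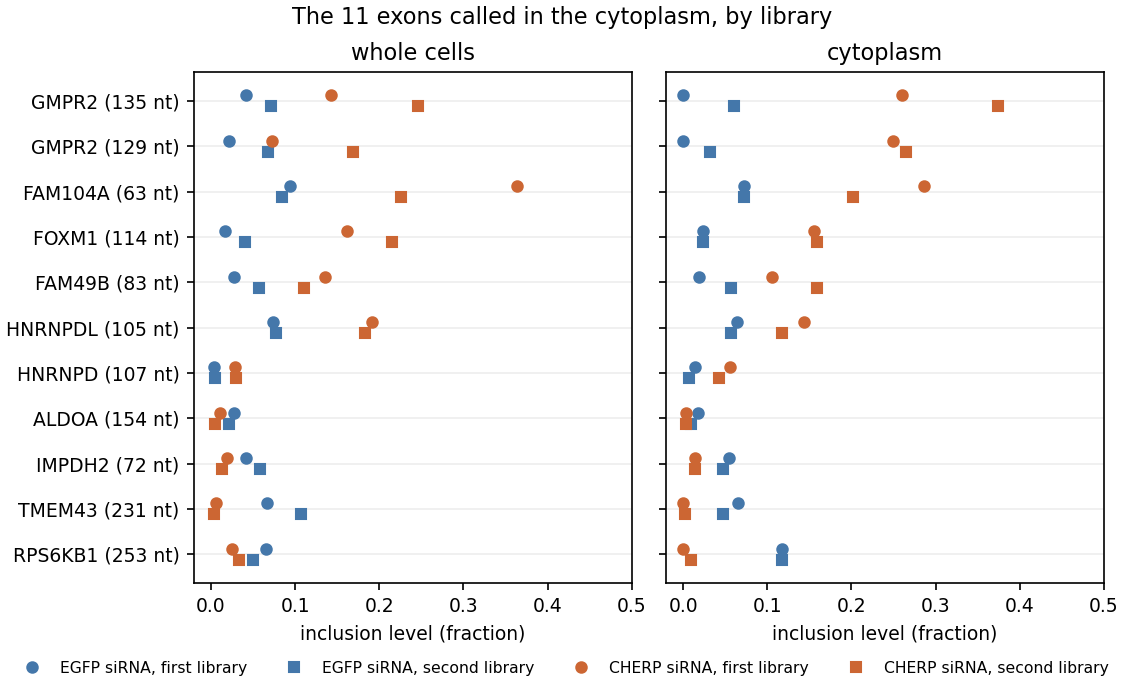
Inclusion level (horizontal axis, fraction) in each library of the 11 exons called in the cytoplasm, in whole cells on the left and in the cytoplasm on the right, with blue for EGFP and orange for CHERP, circles for the first and squares for the second library. In the cytoplasm the CHERP points lie to the right of the EGFP points in the upper 7 rows and to the left in the lower 4.

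The calls depended on single libraries, though each called exon kept its direction when a library was left out. Fewer events of the whole table were called too whenever a library was left out. Without the first EGFP library 0 members were called higher and 0 lower in the cytoplasm, without the second 3 and 3, without the first CHERP library 2 and 2, and without the second 3 and 4. Where the spread was fitted against the reads of the rarer form, 12 were called higher and 21 lower, among 278 calls over all 31924 events. Limma on the log2 odds called 0 members and 0 of all events. It left 265 of the 2467 members at an unadjusted p under 0.05. The same count over all events is not given here, so nothing is read from the 265.

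The whole-cell and the cytoplasmic differences came from separate libraries, so the exons picked by the first can be followed in the second. Whether a whole-cell and a cytoplasmic library shared a transfection is not given. Of the 69 exons higher by 0.1 or more in whole cells, 60 had a level in every cytoplasmic library. Of these 60, 41 were higher and 19 lower there, with a median difference of 0.0495. Among the 21 with 20 or more reads in the cytoplasm, 19 were higher and 2 lower, with a median difference of 0.0727. These 21 included 4 of the 7 exons that rose, and the sets that follow also had 20 or more reads. Of 80 exons higher by 0.03 to under 0.1 without overlap, 55 were higher and 25 lower, with a median difference of 0.00937. Of 97 exons lower by 0.03 or more without overlap, 15 were higher and 82 lower, with a median of -0.0200. The limit of 0.03 was chosen after the values were seen. Among the 1251 other members, 515 were higher and 732 lower, with a median of -0.00150.

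**Figure D5:**
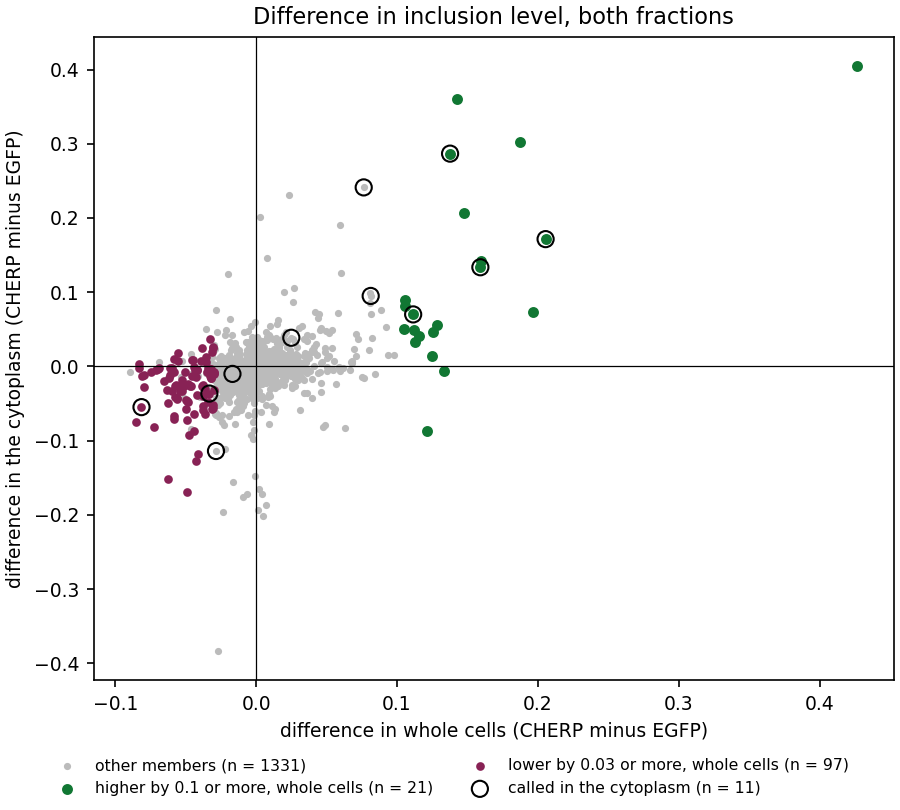
Difference in inclusion level (CHERP minus EGFP siRNA, fraction) of 1449 exons in whole cells (horizontal axis) and in the cytoplasm (vertical axis). Green points are exons higher by 0.1 or more and dark red points exons lower by 0.03 or more in whole cells, both without overlap of the libraries, and rings mark the 11 exons called in the cytoplasm. Of the 21 green points 19 lie above the horizontal line, and of the 97 dark red points 82 lie below it.

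Among the largest whole-cell differences, SLC25A36 was at 0.138 and 0.237 with EGFP siRNA and at 0.659 and 0.525 with CHERP siRNA in the cytoplasm, a difference of 0.405 from 17 to 28 reads per library, with an adjusted p of 0.569. The groups did not overlap, and the exon was not called at this depth. SS18, RBM41 and PQLC3 had 3 to 11 reads per cytoplasmic library, and ZNF529 had 1 to 5. NAGPA was at 0.106 and 0.106 against 0.184 and 0.0311, where the groups overlap. SEPT7P2 had a lower mean with CHERP siRNA, at 0.214 and 0.108 against 0.154 and 0.0832, from 4 to 13 reads and with overlap of the groups. TERF1 was at 0.793 and 1.00 with EGFP siRNA and at 0.846 and 1.00 with CHERP siRNA, from 5 to 11 reads, far from its control level in whole cells.

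A control level of 0.50 or more in the cytoplasm was found in 12 of the 1449 exons, which were picked out after the values were seen. They included exons of RAC1, UQCRH, FRG1B, PPIA (an exon of 157 and one of 67 nt), CDC42, ANXA2, GRN, UBE2S, FAM114A1 and RPL17. The PPIA exon of 157 nt was at 0.0104 with EGFP siRNA in whole cells and at 0.969 and 0.970 in the cytoplasm, while the mean reads per library on its event went from 14131 to 140.0. ANXA2 went from 15274 reads to 23.8 and RAC1 from 1841 to 23.8. The ratio of cytoplasmic to whole-cell reads had a median of 0.0494 in these 12 and of 0.297 in all 1449. FRG1B and FAM114A1 kept more of their reads, with ratios of 0.943 and 0.677. The part of the lower reads in the high level was not tested. The quasi-binomial test called 0 of the 12 between the siRNAs, and the smallest adjusted p was that of RPL17 (0.0562), at 0.435 and 0.622 with EGFP siRNA against 0.160 and 0.130. Several of these genes have processed pseudogenes, so their reads are uncertain. Without the 12 the median difference of the members in the cytoplasm was -0.00159.

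By reading frame, the median control level in the cytoplasm was 0.0110 for 819 exons with a stop, 0.0105 for 185 that shift the frame and 0.0191 for 229 that keep it. In whole cells the same exons were at 0.0136, 0.0102 and 0.0190. The cytoplasmic level was above the whole-cell level in 373 and below it in 426 of the exons with a stop, and above it in 131 and below it in 95 of those that keep the frame. The 2 tables were counted separately and at different read lengths, so these values stand side by side without a test. With CHERP siRNA the cytoplasmic medians were 0.00824, 0.00932 and 0.0144. Of the 11 calls, 1 rise and 2 falls were among 1313 tested exons with a stop, 0 were among 296 that shift the frame, 3 rises and 1 fall were among 365 that keep it, and 3 rises and 1 fall were among 493 without such a coding junction.

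The genes that host the exons were measured in the cytoplasm as the reads per effective length over all their splicing events, so that both forms of an exon count. Of 7293 genes tested with limma, 24.6% rose and 23.6% fell with CHERP siRNA at an adjusted p under 0.05. Of 2087 tested host genes of members, 589 (28.2%) rose and 505 (24.2%) fell. With scaling by the library total, 480 rose and 613 fell, and of all genes 20.1% rose and 28.1% fell, so which direction held more host genes depended on the scaling. Among 59 tested host genes of exons higher by 0.1 or more in whole cells, 6 (10.2%) rose and 25 (42.4%) fell, with a median log2 fold change of -0.32, against -0.01 for all genes. The share that fell was 9 of 23 (39.1%) where the exon held a stop, 6 of 14 (42.9%) where it kept the frame and 3 of 6 where it shifted the frame. Of 192 tested host genes of exons lower by 0.03 or more, 60 (31.2%) rose and 40 (20.8%) fell, with a median of 0.06. These gene levels are of the cytoplasm alone. In bulk RNA a lower one can mean less RNA per cell, fewer cells that express the gene or a smaller part of its RNA in the cytoplasm. Cytoplasmic levels alone cannot tell these apart. The study reports that poly(A)+ RNA built up in the nucleus after CHERP depletion, and the part of this in the gene levels was not tested.

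Of the genes with an exon that rose, HNRNPDL fell by 1.05 (SE 0.06, adjusted p = 1.82e-07, limma), FOXM1 by 0.98 (SE 0.08, adjusted p = 1.6e-06, limma), GMPR2 by 0.52 (SE 0.13, adjusted p = 0.00707, limma) and HNRNPD by 0.42 (SE 0.06, adjusted p = 0.000228, limma), all on the log2 scale. FAM104A rose by 0.54 and FAM49B by 0.19 (adjusted p = 0.00217 and 0.0142, limma). Of the genes with an exon that fell, TMEM43 rose by 1.33 (SE 0.11, adjusted p = 2.98e-06, limma) and ALDOA by 0.18, and IMPDH2 fell by 0.26. RPS6KB1 had a log2 fold change of 0.25 (adjusted p = 0.0623, limma).

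The lists of splicing, decay, cell cycle and repair genes are given by their counts, to be read beside the 18.1% of all members that lay higher and the 21.2% that lay lower without overlap in whole cells. Their calls in the cytoplasm are to be read beside the 0.446% of all tested members that were called. Among 14 genes of SR proteins and TRA2, which promote exon inclusion, 5 had 7 members, 1 higher and 3 lower without overlap in whole cells. Their median level was 0.0422 with EGFP siRNA and 0.0195 with CHERP siRNA in whole cells, against 0.0147 and 0.0126 over all members. The EGFP values chose these exons, so the medians carry no test. In SRSF4 an exon of 184 nt was at 0.0821 and 0.0533 against 0.0292 and 0.00988, and one of 136 nt at 0.0455 and 0.101 against 0.0340 and 0.00581. Both SRSF4 events had the same skipping reads in every library (54 and 78 against 73 and 88), so they are not separate observations. SRSF2 was at 0.0904 and 0.0542 against 0.0270 and 0.0630, where the groups overlap. None of the 4 exons of this list tested in the cytoplasm was called (adjusted p = 0.763 for SRSF2).

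Among 29 hnRNP genes, 10 had 14 members, of which 6 lay higher and 5 lower without overlap in whole cells (18.1% and 21.2% of all members), and the exons of HNRNPD and HNRNPDL were the 2 of 10 tested in the cytoplasm that rose. HNRNPL was at 0.0490 and 0.0694 with EGFP siRNA against 0.0168 and 0.0355 in whole cells. Among 27 genes of the U2 snRNP and its partners, which include the factors CHERP associates with, 11 had 1 member each, 3 higher and 2 lower without overlap (18.1% and 21.2% of all members). SF3B1, the largest subunit of SF3B, had a stop-containing exon at 0.0173 and 0.0141 against 0.0452 and 0.0584. DDX46, a helicase of the U2 snRNP, had one at 0.0865 and 0.0630 against 0.0192 and 0.0239. U2AF2, which binds the polypyrimidine tract, had one at 0.00713 and 0.0748 against 0.0984 and 0.0774. In the cytoplasm 0 of the 9 tested exons were called, and 9 of the 10 members between joined coding exons held a stop.

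Among 74 genes of RBM proteins and other splicing regulators, 32 had 51 members. Of these, 13 lay higher and 12 lower without overlap in whole cells (18.1% and 21.2% of all members). A level higher by 0.1 or more without overlap was found in 3 (2.05% of all members), and 0 of 42 were called in the cytoplasm. LUC7L, a U1 snRNP-associated protein, was at 0.0171 and 0.0252 with EGFP siRNA against 0.156 and 0.110, and TIA1, a regulator that binds U-rich introns, at 0.0954 and 0.0563 against 0.208 and 0.154. NONO, a paraspeckle protein, was at 0.0874 and 0.110 against 0.0218 and 0.0307 in whole cells and at 0.130 and 0.130 against 0.0282 and 0.0682 in the cytoplasm (adjusted p = 0.0890). The NONO groups were apart in both fractions.

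Among 18 genes of nonsense-mediated decay, 5 had 7 members, 0 higher and 3 lower without overlap in whole cells (18.1% and 21.2% of all members), and 0 of 5 were called in the cytoplasm. UPF1, the central helicase of the pathway, was at 0.0221 and 0.0104 with EGFP siRNA against 0 and 0. The EGFP levels of UPF1 rest on 2 and 1 inclusion reads, so they lie near the floor. UPF3B had inclusion reads in a single library, at a level of 0.0338 in the second CHERP library. Its exon is listed only through these reads, so its direction was fixed. The gene level of UPF3B fell by 2.17 on the log2 scale in the cytoplasm (SE 0.34, adjusted p = 0.000273, limma).

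Among 91 genes of chromosome segregation and mitosis, 29 had 39 members, 9 higher and 7 lower without overlap in whole cells, near the 18.1% and 21.2% of all members, and 0 of 29 were called in the cytoplasm. NUF2, a subunit of the NDC80 complex of the kinetochore, was at 0.0248 and 0.0698 with EGFP siRNA against 0.162 and 0.0730. ANLN, the actin-binding scaffold of the contractile ring, was at 0.0576 and 0.0675 against 0.0176 and 0.0198, and TTK, the spindle checkpoint kinase, at 0.00665 and 0 against 0.0681 and 0.0215. The TTK levels rest on 1 and 0 against 6 and 2 inclusion reads. In the cytoplasm TTK was at 0 and 0.253 against 0 and 0, from 5 to 14 reads per library. At the gene level in the cytoplasm NUF2 fell by 2.31, TTK fell by 1.02 and ANLN fell by 0.93 on the log2 scale (adjusted p = 3.27e-07, 0.00398 and 0.000286, limma).

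Among 74 DNA repair genes, 24 had 33 members, 4 higher and 7 lower without overlap in whole cells (18.1% and 21.2% of all members), and 0 of 24 were called in the cytoplasm. XPA, a damage recognition factor of nucleotide excision repair, had a stop-containing exon at 0.103 and 0.0370 with EGFP siRNA against 0.175 and 0.127 in whole cells, and at 0.0188 and 0.0235 against 0.126 and 0.114 in the cytoplasm (adjusted p = 0.761). ATR, the kinase of the replication checkpoint, was at 0.0930 and 0.0573 against 0.138 and 0.129.

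Of 25 genes in which the study tested an exon by RT-PCR, 9 had 11 members, and 0 of the 9 exons tested in the cytoplasm were called. The study chose these genes on the same samples, so they are not independent evidence, and the member need not be the exon that was amplified. KTN1 had 3 such exons, and the highest of them was at 0.0401 and 0.0459 with EGFP siRNA against 0.0471 and 0.0336. SNX14 was at 0.00839 and 0 against 0.0426 and 0.0647, and CLASP1 at 0 and 0 against 0.0192 and 0.0249. The inclusion reads were 1 and 0 against 5 and 7 in SNX14, and 0 and 0 against 2 and 2 in CLASP1. The CLASP1 exon is thus listed only through its CHERP reads, so its direction was fixed. In NUP50 the level was 0.0119 and 0.0178 against 0.00537 and 0.00876, and in NUP62 0.0395 and 0.0510 against 0.0309 and 0.0344. The exons in CDCA7L, SIK3, MON2 and PPP1R12A overlapped between the groups or had inclusion reads in few libraries.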

How the data were processed

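RNA from 8 libraries of U2OS cells (2 per siRNA and fraction) was measured by stranded mRNA sequencing. The authors aligned reads to hg19 with STAR 2.5.2b and counted splicing events with rMATS (its version is not given in the sources used here). The deposited tables hold, for each event, the reads of the inclusion and the skipping form (reads on target and junction) and the effective length of each form, as whole read counts joined in 1 cell for both libraries of a group without a replicate number. The authors' columns of p-values, false discovery rates and level differences, and the gene comparisons made with RSEM 1.2.25 and EBSeq (posterior probabilities and fold changes), were not used. The tables of mutually exclusive exons and retained introns and 20 columns of inclusion levels were not used either.

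Inclusion levels were recomputed from the reads. Each event was tested with a quasi-binomial model in which reads of the inclusion form were set against those of the skipping form (their lengths are constant within an event and did not enter the test). The dispersion came from a trend on the mean reads fitted with limma 3.58.1 (R 4.3.3), with a floor of 1. The fitted prior degrees of freedom were infinite, so each event took the trend's value and not its own spread, with Benjamini-Hochberg adjustment over all events of the table at 0.05. The cells joined the values, so count models for single columns were not used. Gene levels were the reads per effective length summed over skipped-exon and alternative splice site events, in which a read can count more than once, scaled by median ratios, with 0.01 added before the log2 and a mean of 20 or more reads per library, and were tested with limma. A log2 fold change on this scale understates the change of low genes. Annotation came from GENCODE release 44 on GRCh37, the build of the tables, and sequences from that genome with samtools 1.23.1. The 3′ splice site score covered the last 20 bases of the intron and 3 of the exon, and that of the 5′ splice site the last 3 of the exon and 6 of the intron. Python 3.11.15 and pandas 2.3.3 were used for the rest.

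The exons and the gene lists were chosen with earlier results of these data known. The exons named were the 12 with the largest higher and the 3 with the largest lower level in whole cells without overlap of the libraries, those called in the cytoplasm (up to 12 higher and 6 lower), up to 3 per gene list by the size of the whole-cell difference among those with a mean of 50 or more reads, the 3 on either side of the 0.10 limit, and those in genes tested by RT-PCR in the study. Alternatives changed the level limit, the read minimum, the dispersion trend, the test, the control library that chose the exons, the gene scaling, and left out each library in turn. Some items chosen by this rule are not reported here.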

Additional observations from a re-analysis of the deposited data

How the results depend on the processing

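Of 94 values recomputed under the alternatives for the main counts and medians, 56 stayed within 1.5 times (counts) or within the spread between libraries (medians), and 38 moved. The exons were not chosen again when a library was left out. Their number, and the CHERP median without an EGFP library, could therefore not move, and they are counted among the 56. The whole-cell median difference, -0.000463, was 1.34e-05 and 0 when the first or the second control library alone chose the exons and the other gave the difference, so it has no stable sign. The larger direction turned in several pairs of counts. With scaling by the library total, 480 host genes rose and 613 fell. The dispersion trend on the rarer form called more members lower than higher in both fractions. The direction also turned in whole cells without the first EGFP library and in the cytoplasm without the second CHERP library. With a limit of 0.05, 4 members were called higher and 2 lower in the cytoplasm, 16 were called lower in whole cells, 33 were higher by 0.1 or more, the cytoplasmic median difference was -0.00103 and the whole-cell CHERP median 0.00878. With a limit of 0.15 the last 2 were -0.00196 and 0.0148. With a minimum of 10 reads the CHERP median was 0.0137 and 111 exons were higher by 0.1 or more, and with 50 reads these were 0.00990 and 34. With the dispersion trend on the rarer form, 12 were called higher and 21 lower in the cytoplasm and 46 higher and 52 lower in whole cells. Limma on the log2 odds called 0 in each direction and fraction. Chosen by the second control library alone, the exons had a CHERP median of 0.0128. The cause of these shifts was not tested. Leaving out 1 library gave 0 to 3 members called higher and 0 to 4 lower in the cytoplasm, 12 to 31 higher and 5 to 35 lower in whole cells, a cytoplasmic median difference of -0.00238 to -0.000245 and a CHERP median of 0.0110 to 0.0126. A lone library is then assumed to vary like the others. Each exon called in the cytoplasm kept its direction when a library was left out, and kept its call in 2 to 5 of the 7 alternative fits. In the alternative fits that used all libraries the levels were the same, so the direction could not turn. Among host genes of exons higher by 0.1 or more, 5 to 6 rose and 22 to 30 fell, and scaling by the library total moved the median of all genes from -0.01 to -0.09. No paired analysis was possible because the columns carry no replicate number. Low depth limits the cytoplasm most, where the 2393 members with a level had a median of 28.2 reads per library.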
